A study of Mus musculus with 24 samples.

Results

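Long intergenic noncoding RNAs (lincRNAs) are transcripts that lie between protein-coding genes, are often capped and spliced like mRNA, and do not encode a known protein. The oocyte stores many RNAs for use after fertilization. During the maternal-to-zygotic transition these maternal RNAs are removed, and the embryonic genome is switched on in a minor wave in the zygote and a major wave in the 2-cell embryo. N6-methyladenosine (m6A) is a base modification of RNA that is written by the Mettl3 and Mettl14 methyltransferase, mostly within short motifs such as GGACT, and is read in the nucleus by Ythdc1.

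The genes described here are 254 of the 5617 genes of type lincRNA in GENCODE M21, in a table of 55471 genes. They were selected on their RNA level, as lincRNA genes with a mean of at least 200 estimated counts over the 9 input libraries. Gas5, Malat1, Neat1, H19, Meg3 and names starting Snhg were left out by name, which removed 2 genes above the threshold, Malat1 and Snhg20. Just inside the threshold were D16Ertd519e, 6030469F06Rik and Gm43348, with means of 204.3, 207.0 and 210.8 counts. Just outside were Gm20649, 8430426J06Rik and F730016J06Rik, with 195.9, 198.4 and 198.6 counts. The level over the inputs is therefore no finding, and levels are given as a description.

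The series holds 24 libraries, all from B6D2F1 mice. SLIM-seq, an m6A immunoprecipitation (IP) for low amounts of RNA, was made from MII oocytes (the mature egg before fertilization), late 1-cell (L1C) embryos and late 2-cell (L2C) embryos, with 3 IP and 3 input libraries at each stage. Inputs are RNA of the same stage and, per the paper, of the same batches that did not go through the IP. The other libraries are from L2C embryos that were injected at the zygote stage, either with mRNA of the RNA-cutting enzyme Cas13d plus crRNAs that guide it to Ythdc1 (KD, 3 libraries) or with the Cas13d mRNA alone (Ctrl, 3 libraries). Oocytes came from superovulated 8-week-old females, and embryos from such females mated with B6D2F1 males. The labels do not say whether replicates came from separate collections, so p-values measure the spread between these libraries, which may be technical.

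Total estimated counts per stage library ranged from 11107421 to 39739950, and total counts of the 2 KD and 3 Ctrl libraries compared below from 8696476 to 14500548. Levels are CPM, the counts of a gene scaled to a common library size, after TMM scaling, a scaling that sets the bulk of genes equal between libraries. The 254 genes took 2.05% to 2.38% of the counts of an MII input, 4.39% to 4.77% of an L1C input and 3.73% to 3.93% of an L2C input. Each of 10 oocyte genes was detected at every stage, with a summed level of 11200 to 13270 CPM in MII inputs and 843 to 884 CPM in L2C inputs. The 10 genes of the 2-cell list summed to 36.3 to 44.2 CPM in MII inputs and 465 to 651 CPM in L2C inputs, with Usp17la at 0 in MII. The 10 cumulus and granulosa genes summed to 54.6 to 65.5 CPM at MII, 40.8 to 43.0 CPM at L1C and 6.70 to 7.87 CPM at L2C in the inputs. Ptx3 was at 0 at all 3 input stages, and Foxl2 in L2C inputs. In bulk libraries fewer cells of a type and less RNA per cell cannot be told apart.

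The genes differ in how well a read can be placed on them, and this bears on every value below. The longest exon of 207 of the 254 genes had 1 copy in the genome at 90% identity over 80% of its length, counting itself. In 35 genes it had 2 to 99 copies, and in 12 genes 100 or more. The 12 held 2 sequence families, called A and B here. Family A consists of the longest exons of Gm37724, Gm38025 and Gm43042, 1221 to 1682 bases long, with 1500 to 1651 copies. Family B consists of 8 exons of 2590 to 3552 bases with 668 to 675 copies, entirely in soft-masked repeat sequence. The remaining exon, of Gm45740, had 6870 copies.

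The estimated counts of the stage libraries refer to whole gene spans with introns, with reads that fit several genes divided among them. Stretches of families A and B also lie inside the spans of genes whose own exons are unique. A match of at least 500 bases to a family A exon was present in the spans of 34 of the 254 genes, the 3 source genes included. A family B match was present in 24, of which 3 also held family A. The remaining 199 spans held neither, and 170 of them also had a single-copy longest exon. Which copy a read came from cannot be told from these counts, so the level of a span with such a stretch is not that of the lincRNA alone.

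Some genes were near-identical to each other. Among the 14 X-linked genes, 8 have a longest exon with 40 copies each. Of these, the 1433-base exon of E330016L19Rik matched the span of Gm2309 at 99.8% identity over its whole length, and their first 60 bases, shown because the counts of these genes cannot be separated where reads fit both, were the same (GRCm38, + strand, chrX:30086447-30086506 and chrX:35177596-35177655):
E330016L19Rik: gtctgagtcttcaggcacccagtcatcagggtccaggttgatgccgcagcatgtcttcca
Gm2309: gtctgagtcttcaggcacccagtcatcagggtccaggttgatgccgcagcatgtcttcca
The pair Gm48419 and Gm48423 on chromosome 13 was identical over the 2712 bases of the longest exon (chr13:67967528-67967587 and chr13:67983260-67983319 for the first 60 bases, + strand), and their estimated counts were the same in each stage library:
Gm48419: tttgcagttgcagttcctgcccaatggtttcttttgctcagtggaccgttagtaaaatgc
Gm48423: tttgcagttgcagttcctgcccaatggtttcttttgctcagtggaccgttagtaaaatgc
These pairs count as separate genes in the numbers below, although Gm48419 and Gm48423 are 1 measurement in the stage libraries. E330016L19Rik and Gm2309 differed over their whole spans. At MII their log2 IP/input was −0.21 (not called) and −0.87 (called lower).

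For 4 of the genes named for IP enrichment at one stage or more, the sequence around the first GGACT of the longest exon is shown, since GGACT is a main form of the m6A motif. The windows run from 20 bases before to 20 bases after the motif, which stands in capitals, on the strand of the gene (GRCm38; chr12:67651598-67651642 +, chr5:136933813-136933857 +, chr2:72746732-72746776 − and chr2:6140046-6140090 +, in this order):
Gm47432: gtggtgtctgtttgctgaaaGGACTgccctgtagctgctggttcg
4933404O12Rik: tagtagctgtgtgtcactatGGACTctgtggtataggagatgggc
6430710C18Rik: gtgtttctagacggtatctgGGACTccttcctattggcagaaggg
Gm10857: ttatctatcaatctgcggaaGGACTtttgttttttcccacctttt
Of 7875 windows of 45 bases laid end to end over the longest exons of the 254 genes, 4.27% held GGACT on the gene's strand. A match is a description of the sequence, not a mapped modification site. AY036118, Gm11381 and Gm12649, also named for IP enrichment, had no GGACT in their exons. Not all were enriched throughout: Gm12649 was enriched at MII and lower at L1C and L2C (log2 IP/input −0.61 at both), and Gm10857 was lower at MII (−0.42).

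**Figure D1:**
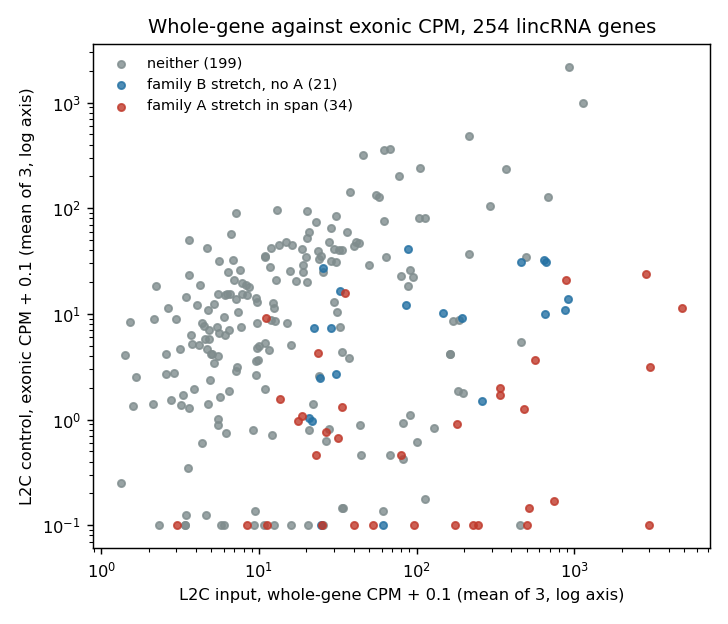
Whole-gene CPM in L2C inputs (x axis, mean of 3 libraries) against exonic CPM in L2C Ctrl embryos (y axis, mean of 3 libraries) for the 254 genes, with 0.1 CPM added and both axes on a log scale. Colours give the high-copy stretch in the gene's span; points on the lowest line had no exonic count, and 12 of the 34 spans with a family A stretch lie there.

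The Ctrl libraries gave an independent view of the same genes, because there the authors counted reads on exons only. In L2C Ctrl embryos 26 of the 254 genes had no exonic count in any of the 3 libraries, and 42 had a mean under 0.5 CPM. Among these 42, 29 had 10 CPM or more in the L2C inputs. The gap was wide for 1700022A22Rik, which had 3075, 3271 and 2592 CPM over its 49349-base span in the L2C inputs and 0 counts on its 1507 exonic bases in all 3 Ctrl libraries. By overlap, 30 of the 103 genes whose span overlaps another gene were under 0.5 CPM, and 12 of the 151 without overlap. By sequence, 16 of the 34 spans with a family A stretch were, and 24 of the 199 with neither family. Exons made up a median of 1.86% of the span in the former and 10.0% in the latter. Reads that fit several places or the exons of several genes were not counted in the exonic files, so multiple placement, overlap and intronic signal cannot be told apart here. No test was made between the 2 kinds of value, which come from different embryos and units.

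Across the 9 inputs, the level per length differed widely among the genes, with a median of 10.7 TPM, quartiles of 2.63 and 51.2 TPM, and a range from 0.139 to 25807 TPM. TPM here is divided by the length of the whole span. Gm37724, whose single exon belongs to family A, had the highest mean TPM, followed by AY036118 at 3640 TPM and Gm38025 at 3048 TPM. AY036118 (chr17:39847113-39848035) lies inside a ribosomal RNA pseudogene of RefSeq, Rn18s-rs5 (chr17:39846354-39848202), so that reads of ribosomal RNA can be counted on it, although its exon has 1 copy in the assembled genome. Next among genes with a single-copy longest exon and no high-copy stretch were C86187 (2594 TPM), Gm1965 (1737 TPM) and Gm1070 (1027 TPM).

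The first question was how lincRNA levels changed after fertilization. From MII to L1C 133 of the 254 genes rose, 40 fell and 81 were not called, with a median log2 change of 0.57. Over all 19903 genes tested 31.9% rose and 24.3% fell, with a median of 0.16. Calls are from edgeR's quasi-likelihood test at a Benjamini-Hochberg adjusted p under 0.05 over all genes tested. The split by sequence was wide: all 34 spans with a family A stretch rose, with a median of 3.28, while among the 199 spans with neither family 80 rose and 40 fell, with a median of 0.31. The 170 genes with a single-copy exon and neither stretch had 65 calls up and 38 down, with a median of 0.23. Their share of calls up, 38.2%, was near the 31.9% of all genes. The count rule used these same inputs, which limits the comparison. Taken within a stage, the mean count threshold was reached at MII by 164 of the 254 genes. None reached it only at MII and 10 only at L1C, so the selection leaned toward a rise. The 107 genes that reached it at every stage had 41 calls up (38.3%) and 27 down (25.2%). Their median of 0.16 was the same as over all genes.

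The 4 genes with the smallest p-values among those that rose all carried a family A stretch. Gm27164 (chr9:33942310-34007173) went from 551 ± 48.7 CPM (SD, n = 3) in MII inputs to 8434 ± 1023 CPM in L1C inputs, which is a log2 change of 4.02 with an SE of 0.14 (edgeR adjusted p = 8.5e-11). Errors of log2 changes are SEs throughout. Gm42743, which overlaps the histone gene Hist2h2bb, went from 109, 109 and 104 CPM to 1087, 980 and 1021 CPM. Gm41496, which overlaps the protein-coding gene Gm49711, and Gm45408, which overlaps Gm45675, rose by 4.19 and 3.40 on the log2 scale. In all 4 genes the lowest L1C input lay above the highest MII input. Also with such a stretch, and among the 8 genes with the highest mean input CPM, were Gm37724, Gm38025, 1700022A22Rik and 1700008C04Rik, which rose by 2.80, 3.40, 3.60 and 2.71. The exonic level of the first 4 genes in L2C Ctrl embryos was low, at 3.03, 0.0456, 0.804 and 1.62 CPM in this order.

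Of the 4 genes with the smallest p-values among those that fell, Gm1070 (chr6:71293765-71302880, which overlaps the protein-coding gene Smyd1) dropped from 4108, 3483 and 3266 CPM in MII inputs to 542, 492 and 643 CPM in L1C inputs (log2 change −2.61 ± 0.15, edgeR adjusted p = 5.0e-09). AY036118 had 499, 694 and 831 CPM in MII inputs and 75.3, 71.8 and 111 CPM in L1C inputs, a log2 change of −2.89. D030018L15Rik and AC140413.1 fell by 1.55 and 1.09 on the log2 scale, and both are spliced, single-copy genes that overlap no other gene. The MII and L1C inputs did not overlap in any of the 4. Among the most abundant genes, C86187 fell by 0.79 on the log2 scale. Gm1965 had 2374 to 3401 CPM at MII and 1771 to 2281 CPM at L1C, a log2 change of −0.36 (edgeR adjusted p = 0.048) that was called here. The call was lost with library size alone as the scaling (−0.31), with the replicate block (−0.35), with only the libraries compared in the fit (−0.35) and with any of several libraries left out, MII input replicate 1 (−0.21) and L1C input replicate 2 (−0.26) among them. CPM are relative to the RNA measured in a library, so they do not show the amount of RNA per embryo.

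From L1C to L2C, across the major activation of the embryonic genome, the balance reversed. Now 75 genes rose, 153 fell and 26 were not called, with a median log2 change of −1.12. Over all genes tested 44.1% rose and 38.8% fell, with a median of 0.17. Of the 170 single-copy genes without a stretch, 120 fell and 44 rose, with a median of −1.87. Among the other lincRNA genes of the table that could be tested, 559 of 1208 fell and 406 rose, with a median of −0.65. The selection bears on this comparison, since 57 genes reached a mean of 200 counts only at L2C and 10 only at L1C, and such genes had to differ. None reached it only at MII, 80 reached it at 2 stages and 107 at all 3. For those of the 80 that missed it only at L2C, the selection leaned toward a fall. The 107 had 79 calls down and 11 up, with a median of −1.29. By stage, 60 genes had their highest mean input CPM at MII, 120 at L1C and 74 at L2C.

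4933427D06Rik had the smallest p-value among the genes that fell. Its inputs had 739, 605 and 567 CPM at MII, 1217, 996 and 1199 CPM at L1C and 23.3, 26.3 and 22.5 CPM at L2C, so that L2C lay far below both earlier stages (log2 change −5.33 ± 0.16, edgeR adjusted p = 1.8e-12). Gm47432 fell by 4.72, A730082K24Rik by 4.55 and AC166350.2, which overlaps Ston1, by 4.84 on the log2 scale. These 4 genes had all risen from MII to L1C, by 0.92, 1.65, 2.72 and 4.02, and thus had their highest level in the late zygote. AC166350.2 stood at 19.9, 16.6 and 15.3 CPM at MII, 313, 247 and 233 CPM at L1C and 8.17, 5.73 and 9.36 CPM at L2C.

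The 4 genes with the smallest p-values among those that rose had under 200 mean counts at MII and at L1C. They met the rule through L2C alone, so their rise was fixed by the selection and their values are a description. B020004C17Rik (chr14:57015134-57018982, single-copy, 4 exons) went from 2.28, 1.16 and 2.85 CPM at L1C to 878, 823 and 1069 CPM at L2C. It stood below 0.5 CPM in each MII input, and its fitted log2 change was 9.03 ± 0.27. Gm6507 went to 270, 344 and 267 CPM from less than 3 CPM, AC112967.1 to 87.5, 65.6 and 94.4 CPM from less than 1 CPM, and the X-linked 1600025M17Rik to 53.1, 65.8 and 66.0 CPM from less than 1 CPM. The longest exon of Gm6507 had 4 copies, while those of the other 3 genes were single-copy.

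The family B genes had their highest level at L2C, which the selection fixed: their mean counts in MII and in L1C inputs were under 200, so they met the rule through L2C alone. The median log2 change of the 8 genes with a family B exon from L1C to L2C was 7.01, given as a description, and their mean levels in L2C inputs ranged from 85.3 to 908 CPM. At MII 7 of the 8 had no count in the 3 inputs, where 3 counts in a library are worth 0.180 CPM. In L1C inputs their means ranged from 0.182 to 8.41 CPM. Because the 8 exons are close copies of each other, they are near to 1 measurement and not 8. Of the 34 spans with a family A stretch, 1 rose and 19 fell from L1C to L2C, with a median of −0.67.

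A fixed list of 30 lncRNA names held 2 of the genes, 2900097C17Rik and Pvt1, and its rule on names starting Platr or linc added Platr30. 2900097C17Rik (Norad), a single-exon lncRNA known to bind Pumilio proteins and to guard chromosome stability, stood at 11.4, 14.2 and 10.7 CPM in MII inputs and 10.2, 12.3 and 12.6 CPM in L1C inputs, which overlap. It rose to 101, 73.3 and 97.4 CPM in L2C inputs (log2 change 3.19 ± 0.17, edgeR adjusted p = 3.9e-10). Pvt1, a neighbour of Myc, had 46.7, 44.8 and 45.2 CPM at MII, 89.9, 69.8 and 66.9 CPM at L1C and 8.14, 5.68 and 9.07 CPM at L2C. It was called up by 0.81 and then down by 3.06 on the log2 scale. Platr30, one of a set of pluripotency-associated transcripts, had 309, 239 and 223 CPM at MII and 318, 271 and 293 CPM at L1C, which overlap. It fell to 26.4, 25.8 and 31.6 CPM at L2C, a log2 change of −3.16. Its longest exon has 2 copies and its span overlaps Gm26553. None of Xist, Tsix, Ftx, Jpx and Firre met the rule.

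**Figure D2:**
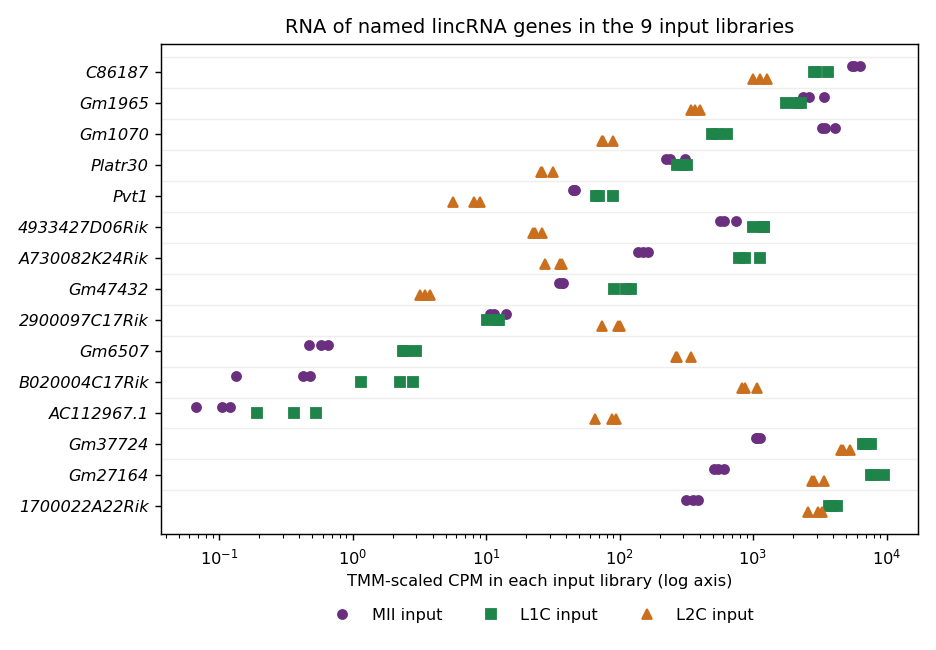
CPM of 15 named lincRNA genes in each of the 9 input libraries, on a log axis, with 1 symbol per library. The upper 8 genes have their lowest values in L2C inputs, the next 4 their highest, and the last 3, whose spans hold a family A stretch, are lowest in MII inputs, as Gm27164 with 551 CPM there and 8434 CPM in L1C inputs.

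Smaller groups set by annotation were described in the same way, to be read against the 44.1% higher and 38.8% lower of all genes from L1C to L2C and, for MII to L1C, 31.9% and 24.3%. Of 16 genes that start within 2000 bases of a protein-coding gene on the other strand, 9 rose and 5 fell from L1C to L2C, with a median of 0.79. Of 7 single-exon genes, 6 rose and 1 fell, with a median of 3.19. Both groups include genes that met the count rule through L2C alone. The 4 genes that hold a miRNA gene on the same strand (Gm20754, Gm12718, 6030443J06Rik and Gm48228) all rose from MII to L1C, as did the 2 that hold a snoRNA gene (Gm12649 and Gm45740). These 6 spans are long, with medians of 188441 and 320172 bases. Among the 103 genes whose span overlaps another annotated gene, 57 fell and 33 rose from L1C to L2C. Among the 151 without overlap, 96 fell and 42 rose. As shares, 55.3% and 63.6% of these groups fell, against 60.2% of all 254.

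The second question was whether lincRNAs were enriched by the m6A antibody. At MII the IP/input ratio was higher than the bulk of genes for 84 of the 254 genes and lower for 33, with a median log2 IP/input of 0.27, or 0.24 with genes that had no count in a group set to their bound. Over all 21950 genes tested 17.7% were higher and 21% lower, with a median of 0.00. At L1C 73 genes were higher and 44 lower (15.8% and 18.2% of all genes), with a median of 0.20. At L2C 91 were higher and 47 lower (22% and 22% of all genes), with a median of 0.22. Protein-coding genes had 18.7%, 16.0% and 21.5% higher and 25.6%, 22.5% and 26.6% lower at the 3 stages. The 1656 other lincRNA genes tested had 16.4%, 14.6% and 28.4% higher and 3.50%, 2.11% and 2.78% lower. Their medians were 0.36, 0.44 and 0.66, or 0.21 at MII with genes that had no count in a group set to their bound. IP/input is a ratio relative to the bulk of genes and no share of modified molecules. The inputs used for the selection are also its denominator, so it is not independent of the rule.

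These splits moved with the scaling. Scaled by library size alone, the called lincRNA genes were 85.0% higher ones at MII in place of 71.8%, 79.9% at L1C in place of 62.4%, and 80.8% at L2C in place of 65.9%. The median of all genes moved from 0.00, 0.07 and 0.09 to 0.20, 0.37 and 0.34 at the same time. The same share over all genes moved in the same direction, from 45.7% to 61.7% at MII, from 46.5% to 70.9% at L1C and from 50.0% to 67.6% at L2C.

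The sequence classes differed here too. Of the 34 spans with a family A stretch 10 were higher and 2 lower at MII, with a median of −0.07. At L1C none was higher and 25 were lower, with a median of −0.99, and at L2C 2 were higher and 23 lower, with a median of −0.83. Spans with family B and no family A had 11 of 21 higher and none lower at L1C, and the same counts at L2C, with medians of 0.70 and 0.53. The 170 single-copy genes with neither stretch had 67 higher and 23 lower at MII, 57 higher and 14 lower at L1C, and 69 higher and 20 lower at L2C, with medians of 0.36, 0.28 and 0.32. Without the spans that hold either family, lower calls made up 9.55% of 199 genes at L1C and 12.1% at L2C, against 17.3% and 18.5% of all 254.

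**Figure D3:**
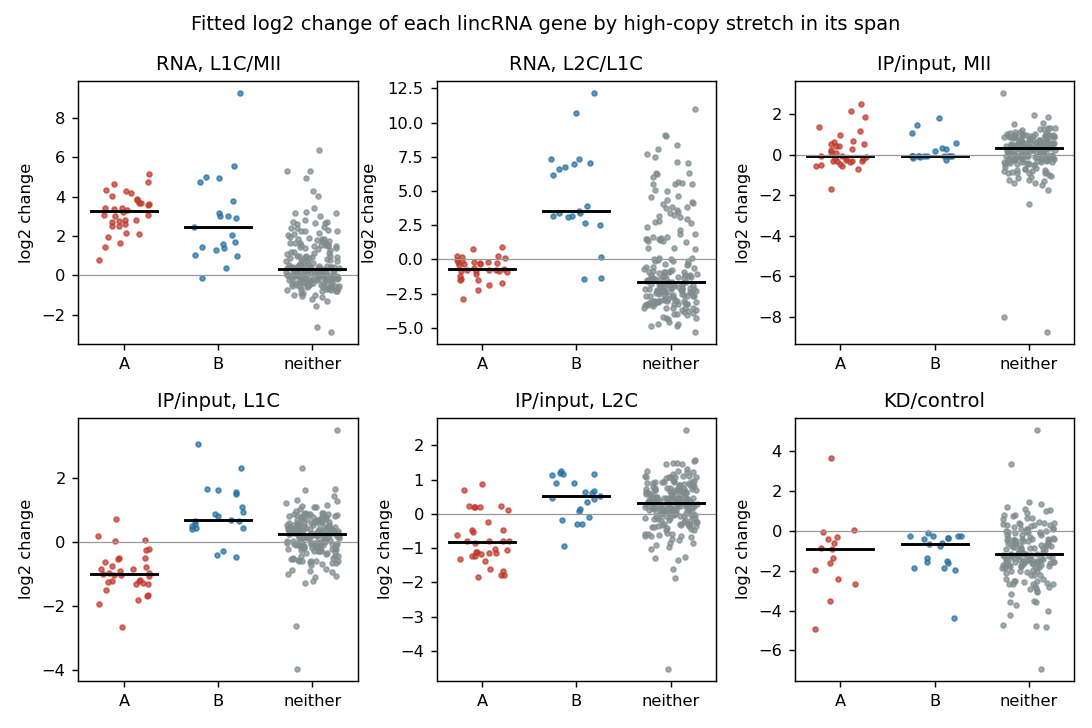
Fitted log2 change of each gene (points) in 6 comparisons, with genes grouped by the high-copy stretch in their span (A, 34 genes; B without A, 21; neither, 199) and the median as a bar; genes with no count in a group are drawn at the change that 3 counts per library would give. Spans with family A lie above 0 in L1C against MII and mostly below 0 in IP/input at L1C and L2C, where their medians are −0.99 and −0.83.

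AY036118 had the smallest p-value among enriched genes at both embryonic stages. Its inputs had 499, 694 and 831 CPM and its IPs 2698, 2185 and 3087 CPM at MII. At L1C the inputs had 75.3, 71.8 and 111 CPM and the IPs 1109, 935 and 896 CPM, and at L2C the values were 462, 489 and 403 CPM against 1744, 3410 and 2265 CPM. The IPs lay above the inputs at each stage, with log2 IP/input of 1.98 ± 0.23, 3.51 ± 0.25 and 2.45 ± 0.24 (SE; edgeR adjusted p = 1.3e-06, 5.5e-09 and 1.8e-07). Ribosomal RNA carries m6A of its own, which other enzymes write, and this locus lies in an 18S ribosomal pseudogene. In the 5 knockdown and control libraries, where reads placed several times or on overlapping genes were left out, AY036118 had no count.

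Among genes with a single-copy longest exon and no family A or B stretch, 6430710C18Rik was enriched at all 3 stages, with inputs of 29.3, 24.2 and 20.8 CPM and IPs of 54.8 to 60.3 CPM at MII. Its log2 IP/input was 1.24 in oocytes, 1.64 at L1C and then 1.57, and no IP library overlapped the inputs of its stage. Gm11381 was likewise enriched at each stage, by 1.09, 1.61 and 0.71. Gm47432, which peaked in the zygote, had 37.9, 35.4 and 36.9 CPM in MII inputs and 144, 136 and 123 CPM in MII IPs, a log2 IP/input of 1.87 ± 0.13 (edgeR adjusted p = 2.1e-09). At L1C and L2C its log2 IP/input was 0.64 and 0.92. Of the genes on the fixed list, Pvt1 was enriched at the 3 stages by 0.52, 0.47 and 0.71, 2900097C17Rik was depleted at MII (−0.66) and L2C (−1.62), and Platr30 was called at none, with values from −0.16 to −0.03.

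The smallest p-value among depleted genes at MII was that of Gm19710, which starts divergently from Hax1 and overlaps Hax1, Ubap2l and Mir7669. Its inputs had 47.3, 31.5 and 27.0 CPM at MII, and its IPs 0, 0.208 and 0.185 CPM. At L1C its IPs had 10.4, 7.97 and 8.94 CPM against inputs of 54.6, 58.6 and 54.1 CPM, and at L2C 13.9, 10.4 and 11.3 CPM against 41.1, 42.4 and 47.4 CPM. Depletion was called at every stage, with log2 IP/input of −8.01, −2.62 and −1.87. Reads of the overlapping genes can be counted on this span, so its values are uncertain. F420014N23Rik, named here after its values were seen, was further below its inputs at each stage. At MII it had 73.6 ± 6.18 CPM in inputs (SD, n = 3) and no count in the IPs, which is at least 431-fold lower, and at L1C and L2C its log2 IP/input was −3.96 and −4.52. It overlaps Dtx3 and Pip4k2c on the other strand, so its values are uncertain too. Gm1070 was depleted by a like amount at every stage, with log2 IP/input of −1.37 ± 0.14, −1.07 ± 0.14 and −1.30 ± 0.14, while its level in inputs fell from 3619 to 79.3 CPM. 1700001L05Rik was depleted as well, with −1.50 in oocytes, −0.89 at L1C and then −0.65. Gm12068 and Gm45408, which hold a family A stretch and overlap other noncoding genes, were depleted at L1C, with −2.66 and −1.22. At L2C Gm45408 was depleted as well (−1.32), while Gm12068 had 0.19 and was not called.

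**Figure D4:**
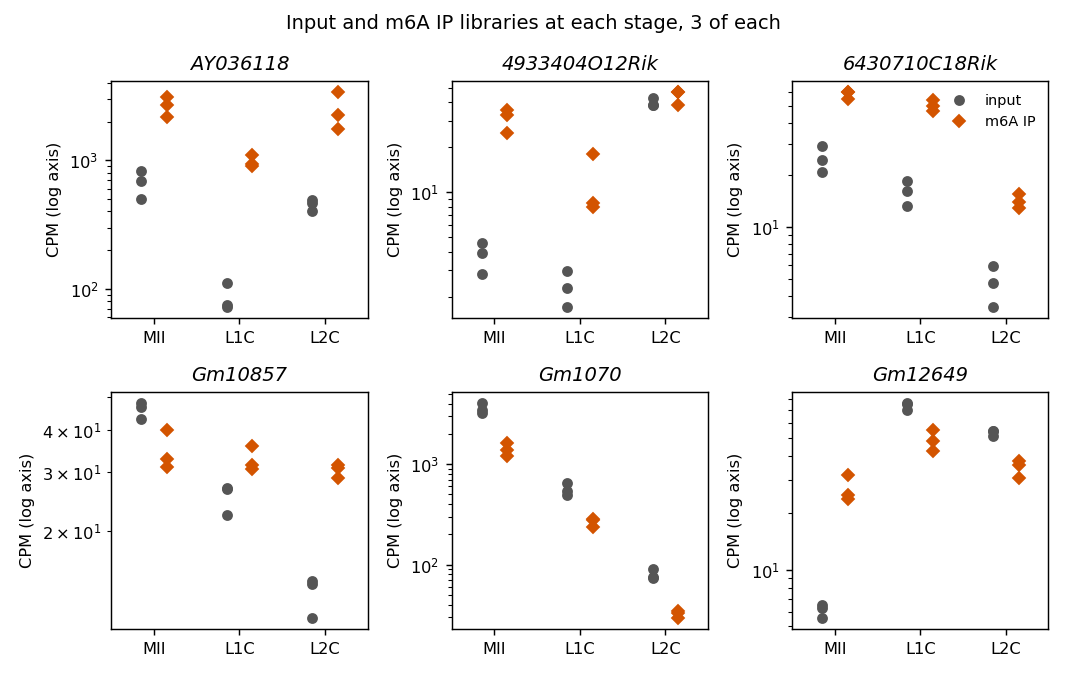
CPM of 6 named lincRNA genes in the 3 input (circles) and 3 m6A IP (diamonds) libraries of each stage, on log axes of their own. In AY036118 and 6430710C18Rik the IPs lie above the inputs at each stage, in Gm1070 below them at each stage, and in Gm12649 above at MII (6.09 CPM mean input) and below at L1C and L2C.

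Calls at MII and L2C come from separate libraries. Of the 84 genes enriched at MII, 49 were enriched at L2C (58.3%), 28 were not called and 7 were lower. Over all genes tested 48.3% of those enriched at MII were enriched at L2C. Of the 33 genes depleted at MII 17 were depleted at L2C (51.5%, against 56.7% of all genes). The 33 include Gm29290, named after its values were seen. Its mean MII input was itself under the level of 3 counts, so depletion cannot be judged there.

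The difference itself was tested as an interaction of stage and IP. IP/input was higher at L2C than at MII for 22 of the 254 genes and lower for 35, where 11.1% and 9.21% of all genes tested were called. The median difference in log2 IP/input was −0.04. Of the 35 lower calls 18 were in spans with a family A stretch, where none was higher. The 199 spans with neither family had 20 higher and 17 lower calls, with a median of 0.04, so their shares of 10.1% and 8.54% were near those of all genes.

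Gm10857 (chr2:6132869-6140568, which overlaps Gm13384) gained IP/input. Its inputs fell from 48.2, 43.2 and 46.8 CPM at MII to 13.9, 11.0 and 14.2 CPM at L2C while its IPs had 32.8, 39.9 and 30.9 CPM at MII and 28.7, 31.5 and 30.7 CPM at L2C. IPs thus lay below inputs at MII and above them at L2C, and the difference in log2 IP/input was 1.63 ± 0.19 (edgeR adjusted p = 7.2e-06). Gm33969 gained 1.64 ± 0.26, from −0.88 at MII to 0.76 at L2C. In the other direction, 4933404O12Rik stood at 3.90, 2.82 and 4.56 CPM in MII inputs and 32.9, 25.1 and 35.4 CPM in MII IPs, and at 38.4, 42.9 and 38.6 CPM in L2C inputs and 46.6, 47.0 and 38.6 CPM in L2C IPs. Its log2 IP/input went from 3.05 ± 0.28 to 0.14 ± 0.24 (difference −2.91, edgeR adjusted p = 1.9e-05) as its RNA rose. Gm12649, 4930412B13Rik and Gm38025 fell by 2.75, 2.16 and 1.45 in log2 IP/input, and each holds a family A stretch. Gm12649 overlaps Gm12640 and small RNA genes, and 4930412B13Rik overlaps Gm13986.

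The density of GGACT in the exons did not order the genes by IP/input. Across the 254 genes Spearman's rho between matches per 1000 exonic bases and log2 IP/input was −0.07 in oocytes, 0.03 at L1C and 0.01 in L2C embryos. Across all 21840 genes with a sequence rho was −0.06, −0.08 and −0.13. The points share libraries and gene length, and the counts cover introns while the motif was counted in exons. At MII enriched lincRNA genes had a median of 0.84 matches per 1000 bases, depleted ones 0.89 and those not called 1.23.

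The third question was what knockdown of the nuclear m6A reader did to lincRNA levels at L2C. Ythdc1 itself stood at 416, 422 and 380 CPM in the Ctrl libraries and at 202 and 208 CPM in KD replicates 1 and 2 (log2 change −0.99 ± 0.08, edgeR adjusted p = 5.2e-08). The count file of KD replicate 3 covers 25739 genes only, 107 of the 254 among them, so the main comparison is between 2 KD and 3 Ctrl libraries. On the scale of those genes alone Ythdc1 had 519 CPM in KD replicate 3, 523 and 541 CPM in the other KD libraries and 994 to 1098 CPM in Ctrl. Values in this section are exonic counts, which leave out multiply placed reads, and they were not used for the selection.

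Of the 254 genes 202 passed the filter on low counts, 135 of these were lower in KD, 17 were higher and 50 were not called, with a median log2 change of −1.16. Of the 17, 2 had a Ctrl mean under 0.5 CPM and passed the filter through the KD libraries, which fixed their direction. The 200 other genes had 15 higher and 135 lower calls. Over all 17074 genes tested 36.4% were lower and 30.5% higher, with a median of −0.09, and protein-coding genes had 35.1% lower and 33.0% higher. Of the 148 tested genes with a single-copy exon and no high-copy stretch, 103 were lower and 15 higher, with a median of −1.16. Over the other lincRNA genes of the table that could be tested, 387 of 816 were lower and 173 higher, with a median of −0.72. With each library left out in turn, 126 to 141 genes were lower.

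The oocyte and 2-cell marker lists moved with the knockdown as well. The 10 oocyte genes summed to 827 to 894 CPM in KD and 1629 to 1770 CPM in Ctrl. The 10 2-cell genes summed to 298 to 336 CPM in KD and 1033 to 1071 CPM in Ctrl. The cumulus and granulosa genes summed to 8.45 to 10.5 CPM in KD and 12.3 to 13.5 CPM in Ctrl, with Cd44, Fshr and Ptx3 at 0 in both groups. The part of a difference in developmental timing in the result was not tested.

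Several abundant maternal lincRNAs were lower in KD. C86187 had 984, 960 and 1047 CPM in Ctrl and 324 and 308 CPM in KD (log2 change −1.66 ± 0.08, edgeR adjusted p = 2.3e-10). AA545190 had 388, 389 and 313 CPM in Ctrl and 91.9 and 87.3 CPM in KD, and Gm1965 227, 236 and 242 CPM against 74.9 and 66.1 CPM. The KD and Ctrl libraries did not overlap in any of the 3 genes. Gm43303, which overlaps D5Ertd615e and Gm42519, fell by 2.89, and Gm43269 fell by 2.94 on the log2 scale. Of genes that peaked in the zygote, Gm47432 fell by 2.62, A730082K24Rik by 1.16, 4933427D06Rik by 0.90 and Pvt1 by 1.78.

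Not every maternal lincRNA fell. Gm1070 had 22.7 ± 3.08 CPM in Ctrl (SD, n = 3) and 21.3 ± 3.32 CPM in KD (SD, n = 2). The groups overlap, and its log2 change was −0.09 ± 0.15 (edgeR adjusted p = 0.62). Among the genes that rise at L2C, B020004C17Rik stood at 2286, 2246 and 2002 CPM in Ctrl and 2085 and 1885 CPM in KD (log2 change −0.13 ± 0.07, edgeR adjusted p = 0.12). Gm6507 fell by 0.80. The 8 family B genes had medians of 12.8 CPM in Ctrl and 9.48 CPM in KD, with 3 called lower (37.5%) and none higher. Over all genes tested 36.4% were lower and 30.5% higher.

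Among the 17 genes that were higher in KD, Gm26917 (chr17:39843013-39846341), which ends just before the ribosomal pseudogene that holds AY036118, had 7.52, 7.81 and 10.9 CPM in Ctrl and 74.8 and 102 CPM in KD (log2 change 3.37 ± 0.16, edgeR adjusted p = 2.8e-10). 2900097C17Rik (Norad) had 26.5, 31.9 and 20.1 CPM in Ctrl and 73.2 and 68.7 CPM in KD, a log2 change of 1.43 ± 0.14. 2310040G24Rik rose from 90.1, 88.0 and 103 CPM to 181 and 166 CPM, and 1600025M17Rik from 347, 365 and 356 CPM to 576 and 531 CPM. KD lay above Ctrl without overlap in all 4. Whether reads of ribosomal RNA are counted on Gm26917 was not tested. Of the 6 single-exon genes tested, Gm26917 and 2900097C17Rik among them, 4 were higher and none lower, where 30.5% and 36.4% of all genes tested were.

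**Figure D5:**
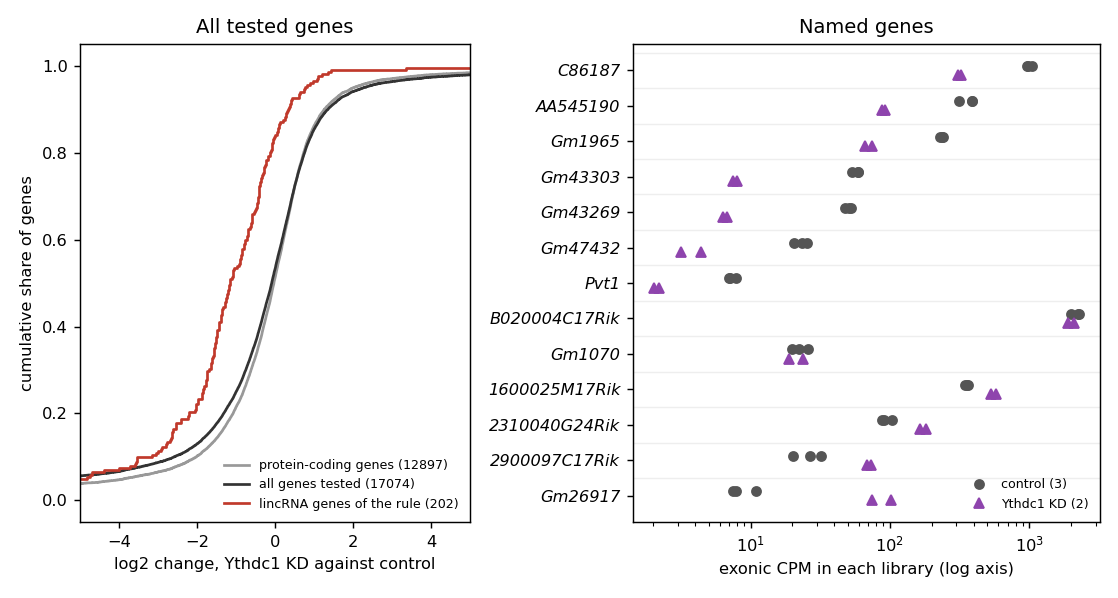
Left, the cumulative share of genes (y axis) up to each log2 change of KD against Ctrl (x axis) for the 202 tested lincRNA genes, all 17074 tested genes and 12897 protein-coding genes; the lincRNA curve lies to the left over most of the range, with a median of −1.16. Right, exonic CPM of 13 named genes in the 3 Ctrl (circles) and 2 KD (triangles) libraries on a log axis, where C86187 to Pvt1 are lower in KD and the last 4 genes higher.

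Genes were grouped by their course from L1C to L2C, which was measured in other libraries. Of 124 tested genes that fell from L1C to L2C, 95 were lower in KD (76.6%), 3 were higher and the median log2 change was −1.41. Of all genes that fell at that step 50.1% were lower in KD, with a median of −0.46. Of 62 genes that rose, 29 were lower (46.8%) and 14 higher, with a median of −0.37. Over all genes that rose at that step 24.9% were lower and 41.6% higher, with a median of 0.21. Genes that met the count rule through L2C alone are among these 62, so the selection put them in this group. Likewise, the selection leaned toward a fall for genes under 200 mean counts only at L2C. The shares over all genes that fell or rose are therefore given as a description. The difference between the shares of these groups was not tested.

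Genes were also grouped by IP/input at L2C. Of 81 tested genes enriched at L2C 59 were lower in KD (72.8%), of 95 not called 62 were (65.3%), and of 26 depleted 14 were (53.8%). Over all genes these shares were 40.3%, 36.5% and 31.6%. The medians of the 3 lincRNA groups were close, at −1.16, −1.08 and −1.30. Sorted by IP/input at MII, 53 of 70 enriched, 69 of 109 not called and 13 of 23 depleted genes were lower in KD (75.7%, 63.3% and 56.5%). Over all genes the shares by MII group were 35.6%, 36.2% and 36.5%. These differences were not tested either.

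KD replicate 3 could be used for 107 of the 254 genes. In the fit of all 6 libraries over the genes of its file, 87 of the 107 were tested, 59 were lower and 14 higher in KD, with a median of −0.96. The main comparison called 58 lower and 11 higher among the same 107. On that scale all genes had 37.4% lower and 33.5% higher calls.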

How the data were processed

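SLIM-seq reads of MII oocytes, L1C and L2C embryos (3 IP and 3 input libraries each) and RNA-seq reads of L2C KD and Ctrl embryos (3 each) were processed by the authors (GRCm38). For SLIM-seq the authors deposited kallisto estimated counts and TPM per gene, for targets that span whole genes with introns; the kallisto version and strand setting are not given in the sources used here. For KD and Ctrl, the deposited counts are those of featureCounts over exons, made by the authors from HISAT2 alignments after trimming with Trimmomatic; per the file headers neither strand, multiply placed nor ambiguous reads were used. The labels name a stranded kit, and the methods a protocol based on Smart-seq2. How the libraries were made thus differs between the sources, so genes that overlap on opposite strands are uncertain.

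Estimated counts were rounded to whole numbers. Tests were edgeR (4.0.16) quasi-likelihood fits with TMM scaling and filterByExpr, with Benjamini-Hochberg adjustment over all genes tested and a threshold of 0.05: 1 fit of the 9 inputs for the stage changes, 1 fit of the 18 stage libraries for IP/input, and 1 fit of 2 KD and 3 Ctrl libraries. KD replicate 3 was left out of the last, because its file covers 25739 genes. A count of 3 was worth 0.102 to 0.180 CPM in stage inputs and 0.256 to 0.299 CPM in KD and Ctrl, which covers counting error only. In simulated counts, edgeR found 96 of 100 genes changed by a log2 of 2 and 13 of 100 changed by 1 (MII to L1C, 19903 genes; the same counts for IP/input at MII, 21950 genes), and 64 and 7 of 100 for KD (17074 genes). The simulation gave every gene the same set spread, which was not taken from these data. Its counts are therefore not the power of the tests above, where changes under a log2 of 1 were called.

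Gene types and spans came from GENCODE M21 (55144 of 55471 targets matched), sequences from RefSeq's GRCm38.p6, and copies of exons from blastn (2.17.0; at least 90% identity). Alternatives were DESeq2 (1.42.0), no filter on low counts, library size alone, a replicate block, only the libraries compared, each library left out, 6 KD and Ctrl libraries, and only genes without overlap. A further 3 subsets of the genes (single-copy exon, no high-copy stretch, Ctrl exonic CPM of at least 0.5) were added after seeing the data. The genes and lists were chosen with earlier results of these data known. Genes named are those on a fixed list of lncRNA names or starting Platr or linc, the 8 with the highest mean input CPM, the 4 (RNA, KD) or 3 (IP/input and its change) with the smallest p in each direction among those called, the 3 on each side of the count threshold, and Ythdc1. Gm26917's neighbour, the sequence families and the near-identical pairs were named after their values were seen. GGACT was searched on the gene's strand only.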

Additional observations from a re-analysis of the deposited data

Results flagged for a closer look

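IP/input differed between oocytes and L2C embryos by the interaction test for 22 genes that were higher at L2C and 35 that were lower (edgeR, adjusted p under 0.05). The 3 with the smallest p-values in each direction were Gm19710, Gm10857 and Gm33969, with differences in log2 IP/input of 6.14, 1.63 and 1.64, and Gm12649, 4930412B13Rik and Gm38025, with −2.75, −2.16 and −1.45. Gm19710 had 0, 0.208 and 0.185 CPM in the MII IPs, so its difference rests on counts near the floor, and its span overlaps Hax1, Ubap2l and Mir7669. The spans of the last 3 genes each hold a family A stretch. Groups had at most 3 libraries, so no single library was tested as standing apart.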

How the results depend on the processing

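Over 14 counts of called genes and their alternatives, 309 values stayed within 1.5 times the reported count and 7 did not. With library size alone as the scaling, 8.27% of the 254 genes were lower in IP at MII, 51.6% were higher at L1C and 56.3% higher at L2C, and the medians of log2 IP/input over all genes were 0.20, 0.37 and 0.34. Without spans that hold a high-copy stretch, 9.55% were lower in IP at L1C, 12.1% were lower at L2C and 8.54% had a lower IP/input at L2C than at MII. With 6 libraries, 13.1% of the 107 genes in the file of KD replicate 3 were higher in KD, a change of the gene set as well: among these 107, 14 genes were called higher with 6 libraries and 11 in the reported fit. Leaving out each library gave, as percent of the 254 genes higher and lower, 48.8 to 53.9 and 11.8 to 15.7 from MII to L1C, 29.1 to 30.3 and 59.4 to 61.0 from L1C to L2C, 25.2 to 34.6 and 9.06 to 13.4 for IP/input at MII, 21.7 to 32.3 and 15.4 to 18.5 at L1C, 28.7 to 36.6 and 15.7 to 20.1 at L2C, 6.30 to 9.84 and 10.6 to 14.2 for its change, and 4.72 to 7.09 and 49.6 to 55.5 for KD. Where an arm was left with 1 KD library, its spread was taken from the Ctrl libraries.

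For single genes 1169 values kept direction and call, 16 lost the call, 5 gained it and 13 changed sign. Those that changed sign were for 4 changes not called in the reported fits. The change of 2900097C17Rik from MII to L1C was −0.023 with DESeq2, −0.0143 without the filter and −0.043 to 0.16 with libraries left out. Gm38025 from L1C to L2C had 0.066 with DESeq2 and 0.019 with library size alone. Gm27164 in KD had −0.033 with library size alone, and −0.060 to 0.15 with libraries left out. Gm1070 in KD had −0.24 to 0.075 with libraries left out. The call of Gm38025 in KD was lost with DESeq2 (−0.59), without KD replicate 2 (−0.26) and without Ctrl replicate 1 (−0.24). The cause was not tested.

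The paper takes inputs and IPs from the same batches of RNA but does not tie a batch to a replicate number. By the values the numbers did not pair the libraries: correlations of same-numbered libraries' deviations from their group means ranged from −0.47 to 0.51, and 6 of 17 exceeded 0.1. With the replicate number as a block, 133 genes rose and 35 fell from MII to L1C, 75 rose and 155 fell from L1C to L2C, 80 were higher and 32 lower in IP in oocytes, 67 higher with 42 lower at L1C, 88 higher with 45 lower at L2C, 18 and 32 changed in IP/input, and 15 and 138 in KD. The block gave Gm1070 in KD 0.012, against −0.087 without it.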
